A study of Mus musculus with 44 samples.

Results

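Nucleotides that leave stressed or dying cells are read by purinergic receptors and broken down by enzymes on the cell surface, and 10 mouse genes of that system were followed: the ATP-gated channels P2rx4 and P2rx7, the nucleotide receptors P2ry2, P2ry6 and P2ry14, the adenosine receptors Adora2a and Adora2b, and the ectoenzymes Entpd1, Nt5e and Cd38. They were chosen by name, as genes that sense or degrade extracellular nucleotides, with earlier results of these data known. Of the 46078 genes in the count table, 14537 had enough reads to be tested, and all 10 were among these.

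The macrophages came from C57BL/6 mice, were taken from the peritoneum 4 days after thioglycolate and were pooled into 1 isolate, so replicates are cultures of that isolate and each p-value measures only the spread between cultures. Cultures received an extract of H9c2 cells (a line from rat heart) at 10 µg/mL, lipopolysaccharide (LPS, a bacterial product) at 100 ng/mL, interleukin 4 (IL-4) at 10 ng/mL, or no stimulus (control), for 8, 24 or 72 h. All groups carried the same genotype and were kept in DMEM with serum and antibiotics. The 12 groups held 44 libraries, 4 each except cell extract at 24 h and 72 h, IL-4 at 72 h and control at 72 h, which held 3. By its title the study asked how damage-associated molecular patterns relate to an M1 state of macrophages. What the extract holds besides its cell source is not given in the labels.

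As background, extracellular ATP opens P2X channels, of which P2rx7 is known for its link to the inflammasome, and nucleotides and sugar nucleotides act on the G protein-coupled P2Y receptors. Entpd1 (CD39) takes ATP and ADP to AMP, Nt5e (CD73) takes AMP to adenosine, and adenosine acts through Adora2a and Adora2b, which raise cyclic AMP and are known to restrain inflammatory output of macrophages. Cd38 consumes NAD and makes cyclic ADP-ribose, and is known as a gene of LPS-activated macrophages.

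Promoter windows are shown for P2ry14, which LPS raised and the extract did not, for Adora2b, whose time course differed between the extract and LPS, and for Cd38, which was 14.2-fold to 51.1-fold higher than control with the extract or LPS. RefSeq's table for GRCm38.p6 held windows of 300 bases, from 250 before to 50 after a transcript's start, for 8 of the 10 genes, 14 windows in all. The windows were searched on both strands for an NF-kB core (GGANTTTCC), an interferon-stimulated response element core (GAAANNGAA), the STAT6-type palindrome and AP-1 (TGAGTCA or TGACTCA). Capitals below mark a match, and each sequence reads 5′ to 3′ on the gene's own strand.
P2ry14 window 1, chr3:59153443-59153742, minus strand: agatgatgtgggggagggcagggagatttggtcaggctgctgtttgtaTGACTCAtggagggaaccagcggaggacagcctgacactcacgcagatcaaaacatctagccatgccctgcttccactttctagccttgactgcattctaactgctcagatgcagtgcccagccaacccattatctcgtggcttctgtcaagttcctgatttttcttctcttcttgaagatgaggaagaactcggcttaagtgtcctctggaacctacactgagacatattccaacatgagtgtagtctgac
P2ry14 window 4, chr3:59130713-59131012, minus strand: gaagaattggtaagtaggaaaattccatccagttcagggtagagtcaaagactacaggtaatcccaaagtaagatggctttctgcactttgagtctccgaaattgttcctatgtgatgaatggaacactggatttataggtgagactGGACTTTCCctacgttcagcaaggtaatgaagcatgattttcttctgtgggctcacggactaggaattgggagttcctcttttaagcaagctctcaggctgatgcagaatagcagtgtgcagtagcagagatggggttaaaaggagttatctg
Adora2b, chr11:62248734-62249033, plus strand: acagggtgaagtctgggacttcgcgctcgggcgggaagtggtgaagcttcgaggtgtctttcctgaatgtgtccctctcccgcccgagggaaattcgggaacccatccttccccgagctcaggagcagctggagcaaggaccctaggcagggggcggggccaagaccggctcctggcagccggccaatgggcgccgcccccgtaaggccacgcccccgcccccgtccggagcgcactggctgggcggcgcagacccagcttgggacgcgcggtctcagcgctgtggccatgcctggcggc
Cd38, chr5:43868559-43868858, plus strand: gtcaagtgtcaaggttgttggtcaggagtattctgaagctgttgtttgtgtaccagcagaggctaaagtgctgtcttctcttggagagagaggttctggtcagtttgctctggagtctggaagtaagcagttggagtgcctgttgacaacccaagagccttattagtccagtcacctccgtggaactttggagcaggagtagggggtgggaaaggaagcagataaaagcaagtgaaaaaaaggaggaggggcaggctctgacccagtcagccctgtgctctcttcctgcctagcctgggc
P2ry14 was the one gene of the 8 with an NF-kB core, at position -103 of its window 4, and its window 1 held an AP-1 match at position -202. Its windows 2 and 3, not printed, held no match, and no other of the 8 genes had as many windows to search. One other match was found, an AP-1 match at position -249 of a P2rx7 window. The Adora2b and Cd38 windows held none of the 4 motifs. Of all 32851 windows in the table, 1.25% held the NF-kB core, 8.56% the interferon element core, 6.95% the STAT6-type palindrome and 5.2% AP-1. A match is a string of letters and not a shown binding site.

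Positions are those of GENCODE M21 on GRCm38. P2rx7 (chr5:122643911-122691432) and P2rx4 (chr5:122707544-122729738) lie side by side on the plus strand, and Cd38 (chr5:43868553-43912375, plus) is on the same chromosome. P2ry6 (chr7:100937630-100974649) and P2ry2 (chr7:100996568-101012866) are neighbours on the minus strand, and P2ry14 (chr3:59113855-59153618, minus) belongs to a cluster of P2Y genes. Adora2a (chr10:75316877-75334784), Adora2b (chr11:62248984-62266453), Entpd1 (chr19:40612366-40741602) and Nt5e (chr9:88327197-88372092) are on the plus strand. Reads over all exons of a gene were counted together, so isoforms are not told apart.

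Depth ran from 0.908 to 26.6 M gene counts per library (median 8.61 M), and levels are given as counts per M gene counts (CPM), with library sizes scaled by TMM. All 7 macrophage markers were detected in every group, with sums of 7881 to 30393 CPM per library. After the data were seen, 4 libraries were set apart from their groups, and some of the values they change are given below. These were replicate 1 of control at 8 h and 24 h and of IL-4 at 24 h, and replicate 3 of IL-4 at 72 h. By a chi-square on the counts of library pairs, replicate 3 of control at 8 h and 24 h lay farther from the others than replicate 1 did. In 7 libraries, all numbered 3, over 10% of reads were ambiguous between genes. In bulk RNA, fewer cells of a type and less RNA per cell cannot be told apart.

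The extract and LPS each changed 5 to 7 of the 10 genes at a given time, and IL-4 changed 2. Of all tested genes, 22.1% to 30.2% were called with the extract, 31.5% to 45.4% with LPS and 8.33% to 23.7% with IL-4. The counts with LPS at 8 h and with IL-4 at 72 h were not far from these shares. Cd38, Adora2a and Adora2b were higher than in control with the extract and with LPS at all 3 times, and Entpd1 was lower with both at all 3 times. P2ry14 separated the stimuli: it was 9.76-fold higher with LPS than in control at 8 h, and 1.46-fold lower with the extract. IL-4 left Cd38, Adora2a, Entpd1 and P2ry14 uncalled at all 3 times and raised Adora2b and P2ry6 at 8 h and 24 h. A gene was called at an adjusted p under 0.05 in edgeR's quasi-likelihood test, adjusted over all tested genes.

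With the extract, 7 of the 10 genes were called at 8 h, where 30.2% of all tested genes were called. Of these 4 were higher and 3 lower, beside 13% and 17.2% of all genes. At 24 h 5 were called (22.1% of all genes), 4 higher (11.7%) and 1 lower (10.4%), and at 72 h 6 (26.3%), 4 higher (14.2%) and 2 lower (12.2%). With LPS, 6 were called at 8 h (45.4% of all genes), 4 higher (21.3%) and 2 lower (24.1%), so the total is not far from the background. At 24 h 6 were called (37.9%), 4 higher (18.6%) and 2 lower (19.3%), and at 72 h 7 (31.5%), 5 higher (16.1%) and 2 lower (15.4%).

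IL-4 changed 2 of the 10 at 8 h (8.33% of all genes), both higher (4.29%; 4.04% of all genes were lower). At 24 h 2 were called (9.5%), both higher (4.74%; 4.76% were lower), and at 72 h 2 (23.7%), 1 higher (13.2%) and 1 lower (10.5%). Rises were 55.6% of all calls with IL-4 at 72 h, and 42.3% under another scaling of library size (RLE). The median size of the log2 difference over the 10 genes was 0.67 with the extract at 8 h and 1.31 with LPS at 8 h, beside 0.36 and 0.59 over all tested genes in the same comparisons. With IL-4 at 24 h it was 0.26 over the 10 genes and 0.26 over all.

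**Figure D1:**
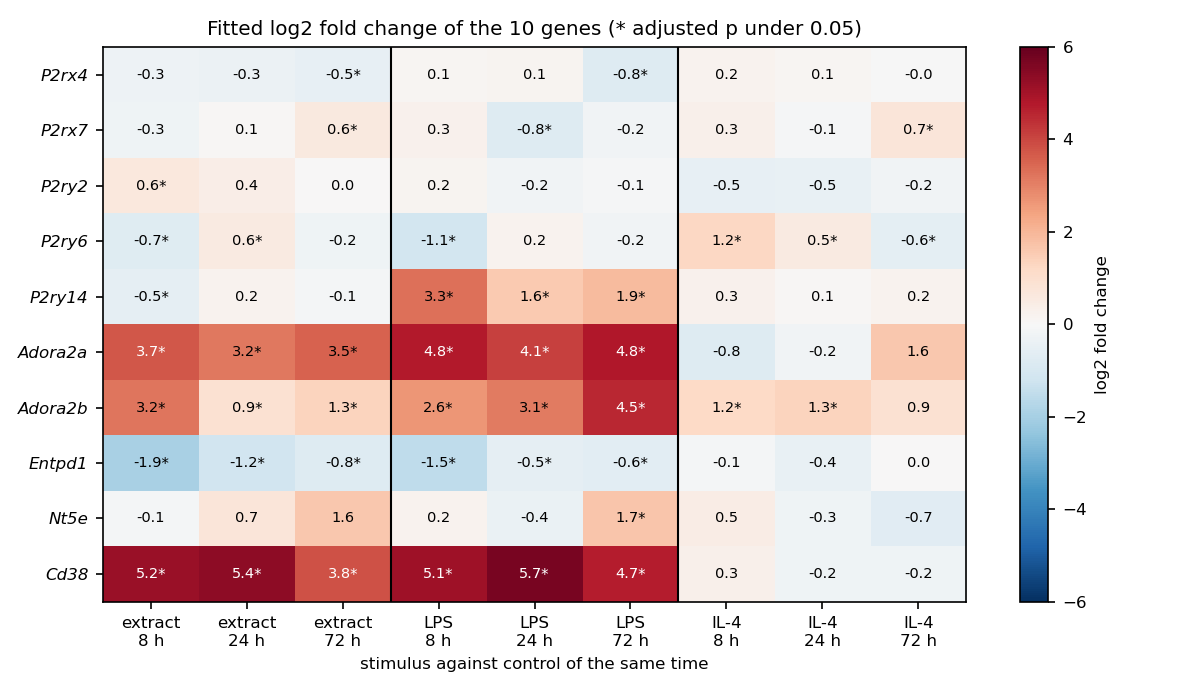
Fitted log2 fold change of each of the 10 genes (rows) for each stimulus against control of the same time (columns), with red for higher and blue for lower and an asterisk for an adjusted p under 0.05. Cd38, Adora2a and Adora2b are red under the extract and LPS at each time, Entpd1 is blue there, and P2ry14 is strongly red under LPS alone (3.29, 1.59 and 1.89 at 8, 24 and 72 h).

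**Figure D2:**
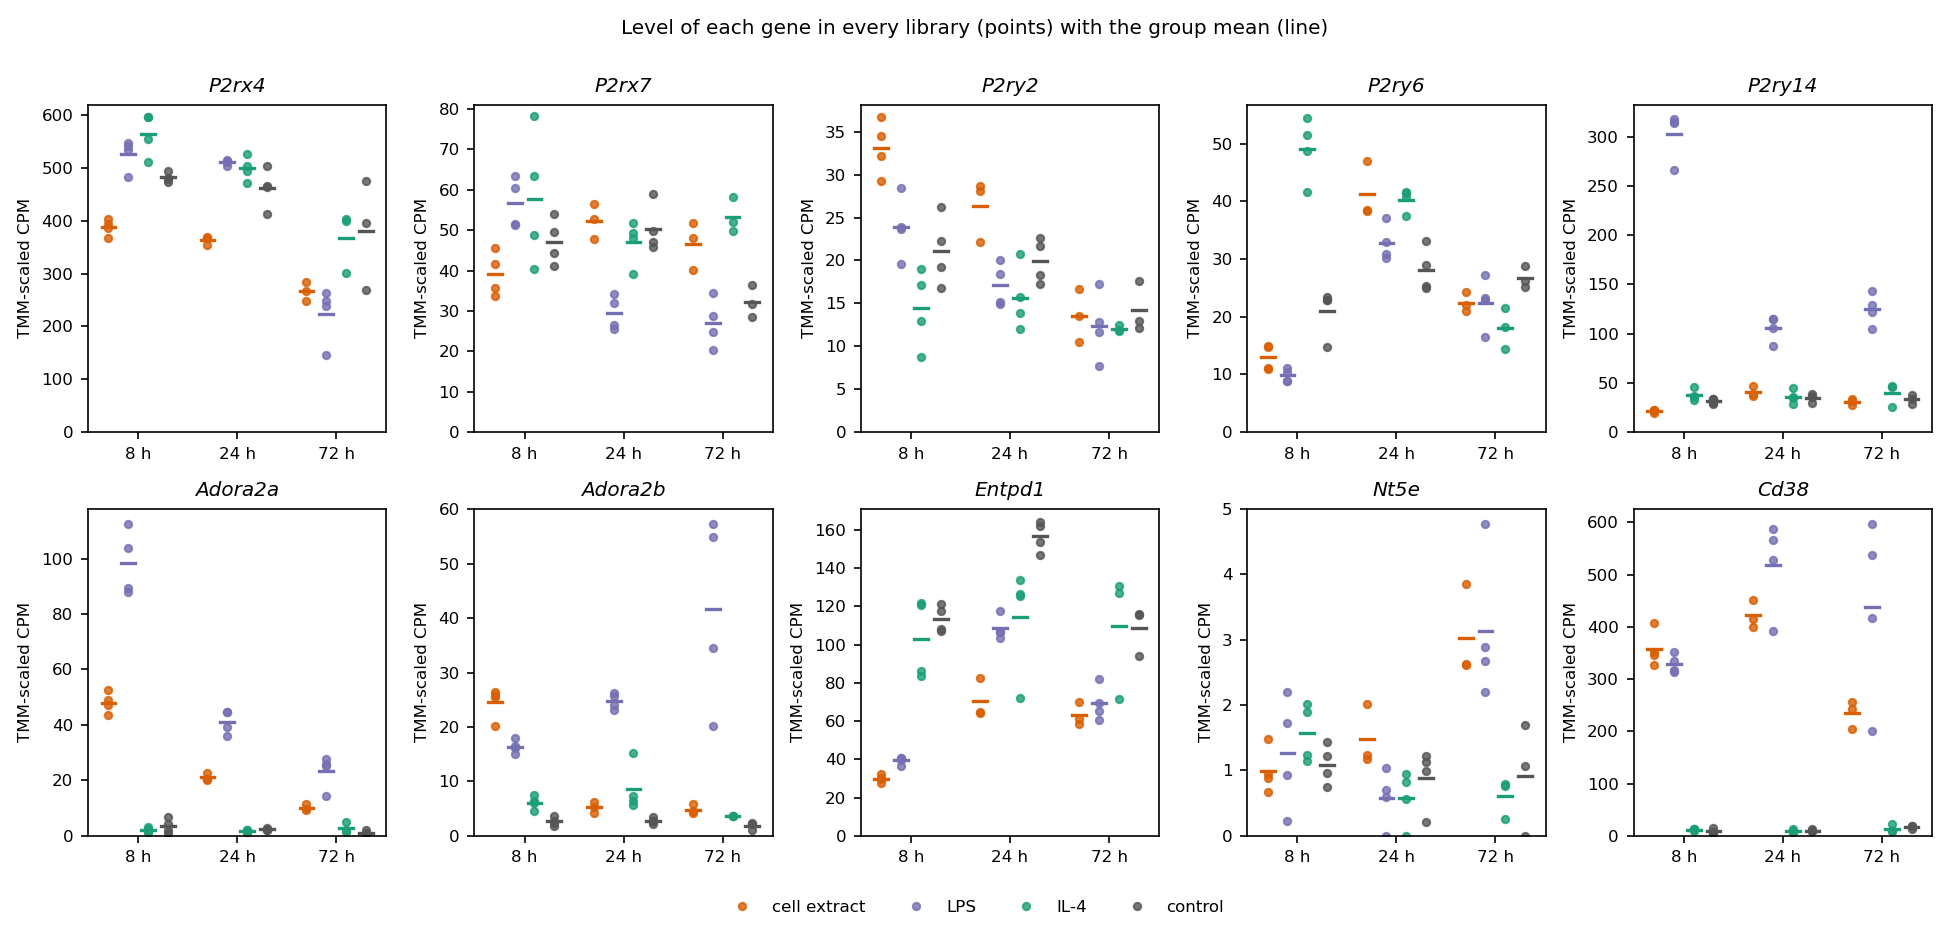
TMM-scaled CPM (linear axis from 0) of each of the 10 genes by time (8, 24 and 72 h) and stimulus, with a point for each library and a line for the group mean. Cd38 libraries under the extract and LPS lie between 200.5 and 597 CPM, all above the control libraries, which lie between 6.07 and 18.2 CPM.

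P2rx4, the channel that ATP opens at low concentrations, was the most abundant of the 10 in control cells when counts were set against exonic length (68.7 CPM per kb of exon at 8 h). The libraries at 8 h had 404, 395, 386 and 368 CPM with the extract and 543, 483, 549 and 535 CPM with LPS, against 480.3, 474, 482 and 494 CPM in control. Extract libraries lay below every control library, but the difference did not pass the test (log2 -0.31 ± 0.13 SE, adjusted p = 0.0719), except when those groups were fitted alone (adjusted p = 0.0381). At 72 h P2rx4 fell with LPS, with 147, 248, 239 and 262 CPM against 269, 397 and 476 CPM in control (log2 -0.75 ± 0.14, adjusted p = 5.49e-05), and the groups did not overlap. With the extract at 72 h it had 268, 248 and 284 CPM, overlapping the lowest control library, and was called lower (log2 -0.51 ± 0.16, adjusted p = 0.0122). That call was lost without control replicate 4 (-0.31, adjusted p = 0.193) and without extract replicate 3 (-0.47, adjusted p = 0.0582), and it was also lost with no filter on low counts (adjusted p = 0.297) and in those groups alone (adjusted p = 0.0562). IL-4 gave differences of -0.05 to 0.23 on the log2 scale, none called.

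P2rx7, the channel that needs high ATP, lies 16.1 kb from P2rx4 on chromosome 5. Over the 12 group means the 2 genes were partly alike (r = 0.46). LPS lowered it at 24 h, to 26.6, 34.2, 31.9 and 25.6 CPM against 49.9, 58.9, 45.9 and 46.97 CPM in control, with no overlap (log2 -0.76 ± 0.15, adjusted p = 6.1e-05). At 72 h the control itself was low: libraries had 48.1, 40.2 and 51.7 CPM with the extract and 49.9, 58.2 and 51.98 CPM with IL-4, against 28.4, 31.6 and 36.4 CPM in control. Both stimuli were thus above every control library, with log2 0.56 ± 0.18 for the extract (adjusted p = 0.0188) and 0.74 ± 0.18 for IL-4 (adjusted p = 0.00207). The extract call ended when extract replicate 2 or 4 or control replicate 1 or 3 was left out (log2 0.49 to 0.56, adjusted p 0.0538 to 0.0989). The control libraries at 72 h also had the higher sums of mesothelial and fibroblast markers, given with Entpd1, and the part of these cells was not tested. Exons of the microRNA gene Mir8115 cover 1.99% of the exonic bases of P2rx7, and the strand setting of the counting is not given in the sources used here.

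P2ry2, the receptor for ATP and UTP, rose with the extract at 8 h. It had 34.5, 29.3, 32.2 and 36.7 CPM there, against 26.3, 22.2, 16.8 and 19.3 CPM in control, and no extract library reached down to the control range (log2 0.64 ± 0.17, adjusted p = 0.00279). At 24 h the extract libraries had 22.2 to 28.6 CPM against 17.2 to 22.6 CPM in control, and the difference did not pass (log2 0.40 ± 0.18, adjusted p = 0.123), except in those groups alone (adjusted p = 0.0322). Neither LPS nor IL-4 gave a called difference at any time, although without IL-4 replicate 1 the IL-4 difference at 8 h was called lower (-0.70, adjusted p = 0.0339), as was that at 24 h without the libraries under 2 M gene counts (-0.53, adjusted p = 0.0388). The gene lies 21.9 kb from P2ry6 on chromosome 7.

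P2ry6, the UDP receptor, moved in opposite directions with LPS and IL-4 at 8 h. It had 14.8, 11.1, 10.97 and 14.9 CPM with the extract and 8.91, 11.1, 8.83 and 10.4 CPM with LPS. IL-4 libraries had 51.6, 54.5, 41.6 and 48.7 CPM, and control libraries 22.9, 22.9, 14.7 and 23.4 CPM. All IL-4 libraries lay above and all LPS libraries below the control range, while the highest extract library (14.9 CPM) just passed the lowest control library (14.7 CPM). The log2 differences were -0.71 ± 0.14 for the extract (adjusted p = 0.000146), -1.11 ± 0.15 for LPS (adjusted p = 8.01e-08) and 1.22 ± 0.14 for IL-4 (adjusted p = 3.51e-08).

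At later times these differences were smaller or turned. At 24 h P2ry6 had 47.1, 38.4 and 38.4 CPM with the extract and 41.4, 37.4, 41.6 and 40.8 CPM with IL-4, against 28.9, 33.1, 24.99 and 25.3 CPM in control. Both were above every control library (log2 0.56 ± 0.15, adjusted p = 0.00344, and 0.52 ± 0.14, adjusted p = 0.0127). At 72 h IL-4 libraries had 18.3, 21.5 and 14.3 CPM against 25.2, 28.8 and 26.2 CPM in control, and the gene was called lower (log2 -0.57 ± 0.17, adjusted p = 0.0127). The IL-4 calls at 24 h and 72 h depended on single libraries, and both were lost with no filter on low counts (adjusted p = 0.0613 and 0.163). The call at 24 h ended without control replicate 3 (0.46, adjusted p = 0.0526) or 4 (0.47, adjusted p = 0.0502). The call at 72 h ended without control replicate 3 (-0.49, adjusted p = 0.079) or IL-4 replicate 4 (-0.41, adjusted p = 0.11). The IL-4 difference at 72 h minus that at 8 h was itself called (log2 -1.79 ± 0.22, adjusted p = 3.14e-07).

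P2ry14, the receptor for UDP-glucose and related sugar nucleotides, rose with LPS. At 8 h it had 315, 266, 318 and 314 CPM with LPS, against 33.3, 29.3, 33.4 and 28.3 CPM in control (log2 3.29 ± 0.16, adjusted p = 1.54e-20). With the extract at 8 h it had 21.5, 21.9, 19.1 and 22.2 CPM, all below control (log2 -0.55 ± 0.15, adjusted p = 0.00391). That fall did not pass without the libraries rich in ambiguous reads (-0.39, adjusted p = 0.131). Its promoter windows, with the NF-kB core and the AP-1 match, are those printed above.

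The LPS rise of P2ry14 was smaller later but did not end. Libraries had 106, 114, 87.5 and 114 CPM with LPS at 24 h, against 29.1, 36.5, 35.6 and 38.5 CPM in control (log2 1.59 ± 0.15, adjusted p = 8.67e-12). At 72 h they had 129, 122, 105 and 143 CPM with LPS, against 37.7, 33.8 and 28.4 CPM in control (log2 1.89 ± 0.17, adjusted p = 9.97e-12). At neither time did an LPS library come near a control library. The LPS difference at 72 h was smaller than at 8 h (log2 -1.40 ± 0.22 between them, adjusted p = 3.33e-06). With the extract the differences were 0.22 at 24 h and -0.12 at 72 h, and with IL-4 they were 0.07 to 0.26 over the 3 times, none called. Without replicate 3 of IL-4 at 72 h, which had 25.7 CPM beside 45.7 and 46.5 CPM in the other libraries, the IL-4 difference at 72 h was called higher (0.47, adjusted p = 0.0437).

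Adora2a, the high-affinity adenosine receptor coupled to cyclic AMP, was near the bottom of the range in control cells and rose with both the extract and LPS. At 8 h it had 47.2, 48.9, 43.7 and 52.4 CPM with the extract and 112, 89.2, 88.04 and 104 CPM with LPS, against 6.97, 2.15, 1.12 and 4.16 CPM in control. No library of either stimulus came within reach of control, and every LPS library lay above every extract library. The log2 differences were 3.74 ± 0.29 (13.4-fold, adjusted p = 1.05e-13) for the extract and 4.77 ± 0.30 (27.3-fold, adjusted p = 4.42e-17) for LPS.

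The level of Adora2a was lower at each later time with both stimuli. In control it was not called lower at 24 h than at 8 h (log2 -0.61, adjusted p = 0.511), and its lower level at 72 h, given with the other control values below, rests on single libraries. At 24 h libraries had 20.3, 22.8 and 20.6 CPM with the extract and 44.7, 39.4, 35.9 and 44.7 CPM with LPS, against 2.08 to 2.72 CPM in control (log2 3.17 ± 0.32 and 4.12 ± 0.31, adjusted p = 2.01e-10 and 2.57e-14). At 72 h they had 11.6, 9.38 and 9.52 CPM with the extract and 14.5, 27.7, 25.998 and 25.04 CPM with LPS, against 0.212, 1.07 and 2.14 CPM in control. These control values rest on 8 reads in all. The log2 difference at 72 h had a wide error: 3.55 ± 0.57 for the extract (adjusted p = 6.58e-06) and 4.79 ± 0.52 for LPS (adjusted p = 6.13e-10). Without control replicate 1 they became 2.78 and 4.02, and without control replicate 4 they became 4.25 and 5.48, all still called. IL-4 libraries had 1.09 to 5.10 CPM over the 3 times, and no IL-4 difference was called by edgeR's test, although that at 72 h (log2 1.64 ± 0.65, adjusted p = 0.0622) passed without control replicate 4 (2.34, adjusted p = 0.0367) or without IL-4 replicate 2 (2.04, adjusted p = 0.015). With every library it was also called higher by DESeq2 (1.54, adjusted p = 0.0441) and with no filter on low counts (1.73, adjusted p = 0.00298). By edgeR's test it was smaller and not called without control replicate 1 (0.88, adjusted p = 0.436) or without IL-4 replicate 3 (0.98, adjusted p = 0.288).

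Adora2b, the adenosine receptor that needs higher adenosine, rose with the extract and LPS on different time courses. At 8 h it had 26.4, 25.9, 20.2 and 25.6 CPM with the extract and 14.9, 16.6, 18.003 and 16.1 CPM with LPS. IL-4 libraries had 6.43, 4.54, 7.46 and 6.01 CPM, and control libraries 2.77, 2.35, 1.76 and 3.73 CPM. The 4 groups did not overlap. The log2 differences from control were 3.21 ± 0.23 for the extract (adjusted p = 1.09e-14), 2.63 ± 0.23 for LPS (adjusted p = 1.28e-12) and 1.20 ± 0.27 for IL-4 (adjusted p = 0.00241).

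By 24 h the order had turned. Adora2b had 4.27, 5.32 and 6.31 CPM with the extract and 24.1, 26.2, 23.1 and 25.7 CPM with LPS, against 2.72, 2.25, 2.77 and 3.40 CPM in control (log2 0.92 ± 0.25, adjusted p = 0.00588, and 3.14 ± 0.23, adjusted p = 1.44e-14). IL-4 libraries had 15.3, 6.39, 7.35 and 5.69 CPM at 24 h, all above control (log2 1.35 ± 0.25, adjusted p = 0.000163). The highest of these was the shallow replicate 1, with 0.908 M gene counts.

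At 72 h Adora2b had 4.13, 4.50 and 5.79 CPM with the extract and 20.2, 54.9, 34.4 and 57.3 CPM with LPS, against 2.33, 1.07 and 2.14 CPM in control. LPS libraries lay well above the others, and varied more among themselves than at the earlier times. The log2 differences were 1.34 ± 0.38 for the extract (adjusted p = 0.00812) and 4.52 ± 0.33 for LPS (22.95-fold, adjusted p = 1.54e-14). Without control replicate 3 the extract difference did not pass (1.08, adjusted p = 0.0657), nor without the libraries rich in ambiguous reads (1.13, adjusted p = 0.082). The change of effect between 8 h and 72 h was called in opposite directions for the 2 stimuli: -1.87 ± 0.49 for the extract (adjusted p = 0.00479) and 1.89 ± 0.43 for LPS (adjusted p = 0.000577). Without control replicate 1 at 72 h the value for the extract did not pass (-1.52, adjusted p = 0.123). Both are measured against the same control libraries.

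Entpd1 (CD39), the enzyme that takes ATP and ADP to AMP, fell with the extract and with LPS at each time. At 8 h the level was 30.2, 27.8, 29.7 and 32.2 CPM with the extract and 40.8, 39.6, 41.001 and 36.8 CPM with LPS, against 118, 121, 107 and 108 CPM in control. All libraries of both stimuli were far below every control library. The log2 differences were -1.92 ± 0.16 for the extract (3.79-fold lower, adjusted p = 8.02e-13) and -1.52 ± 0.16 for LPS (2.87-fold lower, adjusted p = 1.08e-10).

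The fall of Entpd1 was smaller at the later times. At 24 h libraries had 82.5, 64.6 and 64.3 CPM with the extract and 107, 107, 117 and 103 CPM with LPS, against 147, 164, 162 and 153 CPM in control (log2 -1.15 ± 0.17, adjusted p = 7.6e-07, and -0.53 ± 0.15, adjusted p = 0.00467). At 72 h they had 70.2, 58.5 and 61.1 CPM with the extract and 69.4, 60.8, 82.02 and 65.2 CPM with LPS, against 115, 94.2 and 116 CPM in control (log2 -0.77 ± 0.18, adjusted p = 0.00122, and -0.65 ± 0.17, adjusted p = 0.00244). No library of the extract or LPS overlapped control at these times either. The difference at 72 h minus that at 8 h was called for the extract (1.15 ± 0.24, adjusted p = 0.000417) and for LPS (0.87 ± 0.23, adjusted p = 0.00328). The LPS value did not pass without the libraries rich in ambiguous reads (0.66, adjusted p = 0.0976). IL-4 gave no call by edgeR's test (log2 -0.43 at 24 h, adjusted p = 0.0739), while DESeq2 called the gene lower at 24 h (-0.40, adjusted p = 0.0477).

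Entpd1 and Nt5e are also made by endothelial and stromal cells, whose marker sums differed between some of the same groups. The 5 endothelial markers summed to 26.1 to 35.3 CPM with the extract and 40.7 to 64.3 CPM with LPS at 8 h, against 48.9 to 80.1 CPM in control. At 24 h they summed to 22.3 to 29.7 CPM with the extract and 19.02 to 25.6 CPM with LPS, against 52.45 to 80.3 CPM in control. At 72 h the sums were 32.2 to 38.7 CPM with the extract and 17.4 to 22.2 CPM with LPS, against 26.2 to 37.1 CPM in control. Over all libraries Vwf and Kdr had medians of 26.0 and 8.40 CPM, and the other endothelial markers 0.371 to 0.937 CPM. The 7 mesothelial markers at 72 h summed to 1.13 to 2.99 CPM with the extract, 1.93 to 4.94 CPM with LPS and 3.98 to 16.3 CPM with IL-4, against 68.3 to 102 CPM in control. The 7 fibroblast and smooth muscle markers then summed to 184 to 217 CPM with the extract, 157 to 288 CPM with LPS and 82.5 to 178 CPM with IL-4, against 517 to 1092 CPM in control. At 8 h their sums were 122 to 137 CPM with the extract and 168 to 205 CPM with LPS (control 135 to 155 CPM). At 24 h they were 230 to 238 CPM and 226 to 273 CPM (control 198 to 241 CPM). Mesothelial sums at 8 h were 6.81 to 7.78 CPM with the extract and 8.20 to 11.7 CPM with LPS (control 10.6 to 16.9 CPM). At 24 h these were 4.77 to 5.48 CPM and 2.24 to 6.04 CPM (control 21.6 to 24.2 CPM). None of these markers was at 0 throughout a group, and their part in the results was not tested.

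Nt5e (CD73), which makes adenosine from AMP, was scarcely detected, at 0 to 4.77 CPM over the 44 libraries. In 3 libraries it had no read, which allows levels of up to 0.839 CPM in replicate 1 of LPS at 24 h, 3.27 CPM in replicate 1 of IL-4 at 24 h and 1.07 CPM in replicate 3 of control at 72 h, for counting error only. Its highest levels were at 72 h, with 3.85, 2.63 and 2.61 CPM with the extract and 2.89, 4.77, 2.197 and 2.68 CPM with LPS, against 1.696, 0 and 1.07 CPM in control. Libraries of both stimuli lay above control, on 10 control reads in all. The LPS difference was called (log2 1.67 ± 0.63, adjusted p = 0.0404) and the extract difference was not (log2 1.62 ± 0.65, adjusted p = 0.0605). The LPS call was lost without LPS replicate 2 (1.28, adjusted p = 0.176), control replicate 3 (1.09, adjusted p = 0.215) or control replicate 4 (1.70, adjusted p = 0.074), and also with no filter on low counts (adjusted p = 0.0612) and in those groups alone (adjusted p = 0.102). Without control replicate 1 the differences were 2.83 with LPS and 2.78 with the extract, the second then called (adjusted p = 0.0282).

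Cd38, the NAD-consuming ectoenzyme, showed the largest fold differences of the 10 genes with the extract and with LPS at 8 h and 24 h. At 72 h its differences and those of Adora2a were near each other (3.83 and 3.55 with the extract, 4.73 and 4.79 with LPS), and without control replicate 4 Adora2a was ahead with the extract (4.25). At 8 h it had 345, 408, 328 and 352 CPM with the extract and 336, 317, 353 and 313 CPM with LPS. IL-4 libraries had 13.4, 12.6, 13.05 and 9.49 CPM, and control libraries 16.04, 8.32, 6.07 and 8.31 CPM. The extract and LPS ranges overlapped each other, and so did those of IL-4 and control. The log2 differences from control were 5.20 ± 0.29 for the extract (36.7-fold, adjusted p = 1.85e-17), 5.08 ± 0.29 for LPS (33.8-fold, adjusted p = 4.43e-18) and 0.32 ± 0.29 for IL-4 (adjusted p = 0.618).

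At 24 h Cd38 had 452, 399 and 416 CPM with the extract and 527, 588, 391 and 566 CPM with LPS, against 13.1, 9.095, 10.1 and 8.88 CPM in control (log2 5.38 ± 0.30, adjusted p = 3e-17, and 5.67 ± 0.30, adjusted p = 7.55e-19). At 72 h it had 255, 205 and 244 CPM with the extract and 200.5, 538, 417 and 597 CPM with LPS, against 18.02, 13.5 and 18.2 CPM in control (log2 3.83 ± 0.33, adjusted p = 1.53e-11, and 4.73 ± 0.33, adjusted p = 9.65e-15). Extract libraries at 72 h were lower than at the earlier times, and the extract difference at 72 h was smaller than at 8 h (-1.37 ± 0.40 between them, adjusted p = 0.0119), though not without the libraries rich in ambiguous reads (-1.35, adjusted p = 0.0561). IL-4 libraries at 72 h had 8.76, 23.6 and 10.000 CPM, not called against control (log2 -0.24). Without replicate 3 and the other libraries set apart, the IL-4 difference was called lower (-0.81, adjusted p = 0.0268). The IL-4 difference at 72 h minus that at 8 h was then called lower too (-1.46, adjusted p = 0.00492). Neither was called when a single library, replicate 3 included, was left out.

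B cells also make Cd38, and the sum of neutrophil markers differed between some groups. The 5 B-cell markers summed to 6.24 to 16.7 CPM with the extract and 20.3 to 24.3 CPM with LPS at 8 h, against 7.67 to 9.74 CPM in control. At 24 h they summed to 4.84 to 6.15 CPM with the extract and 5.59 to 10.3 CPM with LPS, against 5.103 to 7.005 CPM in control, while Cd38 stood at 391 CPM or more with both stimuli. The 5 neutrophil markers summed to 9.25 to 15.3 CPM with LPS at 72 h, against 1.06 to 2.68 CPM in control. Single markers weighed most in these sums. Of the neutrophil markers, Camp reached 12.9 CPM in a library and the others at most 2.14 CPM. Ly6g and Ngp had no read in 32 and 34 of the 44 libraries. Of the B-cell markers, Ms4a1 reached 18.2 CPM and the others at most 3.73 CPM. The part of B cells and neutrophils in the results was not tested.

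Set against exonic length (GENCODE M21), the order of the 10 genes differed between groups at 8 h. With the extract Cd38 stood first at 92.1 CPM per kb, ahead of P2rx4 (55.3), Adora2a (15.7) and Adora2b (13.3), while Entpd1 stood at 5.37 CPM per kb. With LPS the order was Cd38 (84.7), P2rx4 (75.1), Adora2a (32.1) and P2ry14 (27.4), with Entpd1 at 7.09 CPM per kb. In control cells P2rx4 (68.7) was followed by Entpd1 (20.4), P2rx7 (7.905) and P2ry6 (7.27), and Cd38 (2.49), Adora2b (1.44) and Adora2a (1.18) came near the end. Nt5e was last in all 3 groups, at 0.116, 0.148 and 0.127 CPM per kb with the extract, with LPS and in control.

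Across the 12 groups Cd38 had its 6 highest group means in the extract and LPS groups, led by LPS at 24 h (518 ± 88.1 CPM), and the first 5 overlapped from neighbour to neighbour. The extract at 72 h (235 ± 26.3 CPM) came sixth, clear of both the LPS group at 8 h above it and the control group at 72 h below it (16.6 ± 2.66 CPM). Neighbours among the 6 control and IL-4 groups overlapped. P2ry14 was led by LPS at 8 h (303 ± 24.8 CPM), clear of LPS at 72 h and 24 h, which overlapped, and those were clear of the other 9 groups. Adora2b was led by LPS at 72 h (41.7 ± 17.6 CPM), overlapping LPS at 24 h and the extract at 8 h. Entpd1 was highest in control at 24 h (157 ± 8.05 CPM) and lowest with the extract at 8 h (29.97 ± 1.78 CPM), and both stood clear of their neighbours.

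The extract and LPS were then compared directly. At 8 h, 6 of the 10 genes were called (29.1% of all genes), 2 higher (14%) and 4 lower (15.1%) with the extract. At 24 h 7 were called (16.8%), 2 higher (8.06%) and 5 lower (8.76%), and at 72 h 5 (22.4%), 1 higher (11%) and 4 lower (11.4%). P2ry14 was lower with the extract than with LPS at all 3 times, by log2 -3.84 ± 0.16 at 8 h (14.3-fold, adjusted p = 1.03e-21), -1.37 ± 0.16 at 24 h (adjusted p = 1.58e-08) and -2.01 ± 0.17 at 72 h (adjusted p = 1.13e-11). Adora2a was lower with the extract at all 3 times as well, by -1.03, -0.95 and -1.25 (adjusted p = 0.000849, 0.00926 and 0.00181). Adora2b was higher with the extract at 8 h (0.58 ± 0.20, adjusted p = 0.0253) and lower at 24 h (-2.22 ± 0.23, adjusted p = 8.66e-10) and 72 h (-3.18 ± 0.25, 9.09-fold, adjusted p = 2.14e-12). The difference at 8 h did not pass without extract replicate 1 (0.54, adjusted p = 0.0633) or 4 (0.56, adjusted p = 0.0552).

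**Figure D3:**
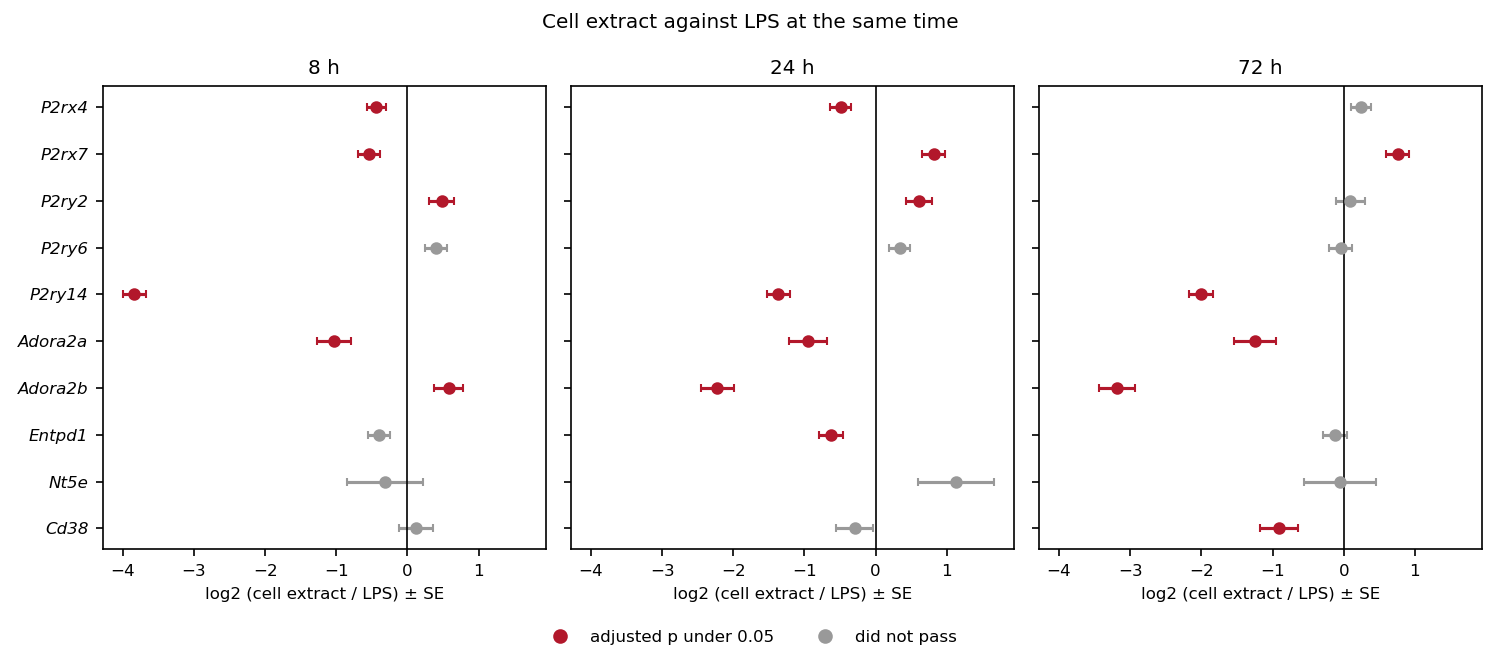
Fitted log2 ratio of cell extract to LPS for the 10 genes at 8, 24 and 72 h, with standard errors as bars and red for an adjusted p under 0.05. P2ry14 lies left of 0 at all times (-3.84, -1.37 and -2.01), Adora2b is at 0.58 at 8 h and at -2.22 and -3.18 later, and Cd38 lies near 0 at 8 h and 24 h.

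The channels and other receptors differed by less. P2rx7 was lower with the extract than with LPS at 8 h (-0.54 ± 0.15, adjusted p = 0.00451) and higher at 24 h (0.82 ± 0.16, adjusted p = 0.000148) and 72 h (0.76 ± 0.17, adjusted p = 0.000693). P2rx4 was lower with the extract at 8 h (-0.44, adjusted p = 0.00935) and 24 h (-0.49, adjusted p = 0.0142). P2ry2 was higher with it at 8 h (0.48, adjusted p = 0.0308) and 24 h (0.61, adjusted p = 0.015). Entpd1 was lower with it at 24 h (-0.62 ± 0.17, adjusted p = 0.00569). With no filter on low counts, P2rx7 at 8 h (adjusted p = 0.0808) and P2rx4 at 8 h and 24 h (adjusted p = 0.352 and 0.321) were not called. The calls at 8 h were lost, for P2rx7, without extract replicate 3 or LPS replicate 2 or 3, for P2rx4, without extract replicate 2 or 3 or LPS replicate 1, 3 or 4, and, for P2ry2, without extract replicate 1 or 4 or LPS replicate 3 (adjusted p 0.0511 to 0.1). At 24 h they were lost, for P2rx4, without extract replicate 2 or 3, for P2ry2, without extract replicate 2 or 3 or LPS replicate 4, and, for Entpd1, without extract replicate 3 (adjusted p 0.0504 to 0.0872). The P2rx7 calls at 24 h and 72 h held whichever library was left out. P2ry6 was not called between the extract and LPS at 8 h (0.40), but was higher with the extract without extract replicate 2 or 3 or LPS replicate 2 or 4 (0.49 to 0.56, adjusted p 0.0129 to 0.0336) and under RLE scaling (0.41, adjusted p = 0.041).

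Cd38 did not differ detectably between the extract and LPS at 8 h (log2 0.12 ± 0.24, adjusted p = 0.77) or 24 h (-0.30 ± 0.26, adjusted p = 0.523), which does not show that the levels were the same. At 72 h it was lower with the extract (-0.91 ± 0.27, adjusted p = 0.0112). That call was lost without extract replicate 3 (-0.78, adjusted p = 0.0715), LPS replicate 2 (-0.71, adjusted p = 0.0627) or LPS replicate 4 (-0.73, adjusted p = 0.0571), and in those groups alone (-0.89, adjusted p = 0.0646).

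LPS was compared with IL-4 as the pair of stimuli known for classical and alternative activation. At 8 h, 7 of the 10 genes were called (42.6% of all genes), 5 higher (20.8%) and 2 lower (21.8%) with LPS. At 24 h 5 were called (36.2%), 4 higher (18.1%) and 1 lower (18.1%), and at 72 h 8 (39.1%), 5 higher (18.7%) and 3 lower (20.4%). P2ry6 was 5.02-fold lower with LPS than with IL-4 at 8 h (log2 -2.33 ± 0.16, adjusted p = 7.25e-16), with no library in common range, and was not called at 24 h or 72 h. Without IL-4 replicate 3 (0.50, adjusted p = 0.0197) or LPS replicate 1 (0.39, adjusted p = 0.0457) it was called higher with LPS at 72 h, and so it was with every library by DESeq2 (0.44, adjusted p = 0.0142) and under RLE scaling (0.43, adjusted p = 0.0239). Adora2b was higher with LPS at all 3 times (log2 1.43, 1.79 and 3.59), as were Cd38 (4.76, 5.92 and 4.98), Adora2a (5.56, 4.35 and 3.15) and P2ry14 (3.03, 1.52 and 1.66). Without IL-4 replicate 3 the Adora2a difference at 72 h was 3.82. P2ry2 was higher with LPS at 8 h (0.65 ± 0.19, adjusted p = 0.00533). Entpd1 was lower with LPS at 8 h (-1.39) and 72 h (-0.67, not called in those groups alone, adjusted p = 0.0511), P2rx7 at 24 h (-0.69) and 72 h (-0.94), and P2rx4 at 72 h (-0.71). Nt5e was higher with LPS at 72 h (2.36 ± 0.54, adjusted p = 0.000545), at 2.197 to 4.77 CPM with LPS and 0.255 to 0.796 CPM with IL-4.

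In control cells, time alone changed little by 24 h. None of the 10 genes was called at 24 h against 8 h by edgeR's quasi-likelihood test over every library or by DESeq2, where 0.537% of all genes were called (0.323% higher, 0.213% lower), and 2 had an unadjusted p under 0.05. Entpd1 stood at log2 0.46 ± 0.15 there (adjusted p = 0.178 by edgeR's test). It was called higher when the 2 control groups were fitted alone (0.45, adjusted p = 0.0274). At 72 h against 8 h, 3 were called (13.5% of all genes), all lower (7.16%; 6.38% of all genes were higher): Adora2a (log2 -2.02 ± 0.62, adjusted p = 0.0262), P2rx7 (-0.57 ± 0.17, adjusted p = 0.0225) and P2ry2 (-0.61 ± 0.21, adjusted p = 0.0474). Rises were 47.1% of all calls there, and 64.1% under RLE scaling. None of the 3 was called when the 2 control groups were fitted alone. Each was lost without control replicate 1 or 3 at 72 h or replicate 1 at 8 h (log2 -2.17 to -1.26 for Adora2a, -0.56 to -0.50 for P2rx7 and -0.56 to -0.49 for P2ry2). P2rx7 was also lost without control replicate 2 at 8 h, and P2ry2 without control replicate 2 or 4 at 8 h. With every library, P2ry2 was not called by DESeq2 (-0.53, adjusted p = 0.0817) or under RLE scaling (-0.52, adjusted p = 0.0938). Without control replicate 1 at 8 h, Cd38 was called higher at 72 h than at 8 h (1.11, adjusted p = 0.0161), as it was with every library by DESeq2 (0.85, adjusted p = 0.0368) and with no filter (0.70, adjusted p = 0.045), and without control replicate 4 at 72 h, P2rx4 was called lower (-0.55, adjusted p = 0.0234).

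The difference of a stimulus at 72 h was also tested against its difference at 8 h. For the extract 4 of the 10 genes were called (21.9% of all genes), 2 with a higher difference at 72 h (13.1%) and 2 with a lower one (8.75%). For LPS 5 were called (30%), 3 higher (15.7%) and 2 lower (14.3%), and for IL-4 2 (16.1%), 1 higher (9.51%) and 1 lower (6.57%). Those not yet given were P2rx7 with the extract (0.84 ± 0.23, adjusted p = 0.00801), P2rx4 with LPS (-0.88 ± 0.20, adjusted p = 0.000531, and 0.0507 with no filter on low counts), P2ry6 with LPS (0.91 ± 0.23, adjusted p = 0.00177) and Adora2a with IL-4 (2.43 ± 0.79, adjusted p = 0.0311). The last was lost without IL-4 replicate 3 at 72 h (1.77, adjusted p = 0.102), without control replicate 1 (1.67, adjusted p = 0.182) or 3 (2.60, adjusted p = 0.0501) at 72 h, without control replicate 1 at 8 h (1.90, adjusted p = 0.0675), and without IL-4 replicate 1 (2.16, adjusted p = 0.0681) or 3 (2.34, adjusted p = 0.0533) at 8 h.

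Other genes of the same system came from 3 lists: 12 other receptors (8 tested), 14 other extracellular enzymes and NAD users (9 tested), and 16 genes of release, uptake and turnover inside the cell (all tested). Their counts below are to be read beside the shares of all tested genes called, which at 8, 24 and 72 h were 30.2%, 22.1% and 26.3% with the extract, 45.4%, 37.9% and 31.5% with LPS, and 8.33%, 9.5% and 23.7% with IL-4. A list's share near these is no result about the list. With the extract, 1 receptor rose and 1 fell at 8 h, and 3 rose and 1 fell at 24 h. At 72 h edgeR's quasi-likelihood test called no receptor, 4 had an unadjusted p under 0.05, and DESeq2 called 1 (P2ry1, lower). With LPS 2 rose and 1 fell at 8 h, 3 rose and 2 fell at 24 h, and 2 rose and 1 fell at 72 h. Among the enzymes, 2 rose and 1 fell at 8 h, 4 and 1 at 24 h, and 3 and 1 at 72 h with the extract, and 2 and 1, 4 and 2, and 4 and 3 with LPS. Among the 16 turnover genes, 5 rose and 5 fell at 8 h with the extract, and 7 rose and 8 fell with LPS. At 24 h 5 rose and 4 fell with the extract and 7 rose and 7 fell with LPS, and at 72 h 5 rose and 1 fell with the extract and 5 rose and 4 fell with LPS. With IL-4, 1 receptor rose at 8 h and 1 at 24 h, 1 receptor fell at 72 h, and 1 enzyme rose and 2 fell at 72 h. Before that edgeR's quasi-likelihood test called no enzyme. At 8 h 2 had an unadjusted p under 0.05 and DESeq2 called 1, Enpp4, lower at an adjusted p of 0.046 (-1.03 and 0.0839 by edgeR). By edgeR the Enpp4 difference was -0.34 without control replicate 1 (adjusted p = 0.622). It was called lower without control replicate 2 (adjusted p = 0.0421) or 4 (adjusted p = 0.0212). At 24 h 1 enzyme had an unadjusted p under 0.05, Enpp3 (1.46, adjusted p = 0.0774), and DESeq2 called none. With no filter on low counts 1 enzyme was called lower at 8 h and 1 at 24 h. IL-4 raised 1 turnover gene and lowered 4 at 8 h, lowered 4 at 24 h, and raised 2 and lowered 1 at 72 h. When IL-4 replicate 3 of the same time was left out, it raised 1 and lowered 2 at 8 h, and raised 3 and lowered 3 at 72 h. Without the libraries rich in ambiguous reads it lowered 2 at 24 h. The enzymes that fell with IL-4 at 72 h were not called without control replicate 1.

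The median log2 difference of the tested receptors was 0.08, 0.24 and -0.13 with the extract at 8, 24 and 72 h and 0.47, 0.44 and 0.84 with LPS. That of the enzymes was 0.55, -0.16 and 1.58 with the extract and 0.50, 0.38 and 2.85 with LPS, and that of the turnover genes 0.19, 0.15 and 0.13 with the extract and -0.06, -0.13 and -0.02 with LPS. Over all tested genes the medians were -0.06, -0.06 and 0.00 with the extract and 0.00, -0.07 and 0.05 with LPS.

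P2ry13, an ADP receptor 54.3 kb from P2ry14 on chromosome 3, also rose with LPS at all 3 times (log2 2.43, 4.22 and 3.44, largest adjusted p = 9.92e-05). It averaged 9.13 ± 4.08 CPM with LPS at 24 h and 0.451 ± 0.309 CPM in control. Unlike P2ry14, it was called higher with the extract at 24 h (2.90 ± 0.51, adjusted p = 2.31e-05), with a mean of 3.63 ± 0.3599 CPM (n = 3). Without control replicate 1 its LPS difference at 72 h was 5.10, and its extract difference at 72 h, otherwise not called, was 3.19 (adjusted p = 0.0356). P2ry12, the next ADP receptor in the cluster (62.7 kb away), was not called with the extract or LPS and was called lower with IL-4 at 72 h (log2 -1.85, adjusted p = 0.0496). That call was lost whichever of the 6 libraries was left out (adjusted p 0.0694 to 0.157).

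P2ry1, another ADP receptor, moved like P2ry6 at 8 h. It averaged 6.33 ± 0.9997 CPM with the extract, 4.98 ± 1.86 CPM with LPS and 39.9 ± 6.21 CPM with IL-4, against 20.99 ± 3.35 CPM in control. It fell with the extract (log2 -1.72) and with LPS (-2.14) and rose with IL-4 (0.92, adjusted p = 0.00103). LPS lowered it at 24 h and 72 h too (-2.60 and -1.97), and IL-4 raised it at 24 h (0.89, adjusted p = 0.00116). With the extract at 72 h its difference was -0.61 (adjusted p = 0.0716), called lower by DESeq2 (-0.68, adjusted p = 0.0296), under RLE scaling (-0.67, adjusted p = 0.0368), with the replicate number as a block (-0.70, adjusted p = 0.0476) and without control replicate 4 (-0.80). With IL-4 at 72 h it was called without IL-4 replicate 3 (0.73). P2ry10, grouped with P2Y receptors by sequence and known to bind a lysophospholipid, rose with LPS at 8 h and 24 h (log2 2.63 and 2.62, the second 3.31 without control replicate 4). At 72 h it stood at 1.72 ± 0.817 CPM with LPS, against 0.308 ± 0.365 CPM in control on 3 reads, too few for a fold.

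Bst1 (CD157), the paralogue of Cd38 that lies 24.6 kb from it on chromosome 5, also rose with the extract and LPS at all 3 times. With the extract it averaged 167 ± 4.73, 554 ± 27.7 and 365 ± 35.01 CPM at 8, 24 and 72 h, with LPS 136 ± 13.3, 374 ± 62.6 and 681 ± 51.3 CPM, and in control 84.99 ± 5.38, 63.5 ± 9.36 and 56.1 ± 4.28 CPM. The log2 differences were 0.98, 3.12 and 2.70 with the extract (largest adjusted p = 6.01e-07) and 0.68, 2.55 and 3.60 with LPS (largest adjusted p = 0.000113). Whether these differences changed with time was not tested.

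Of the enzymes that split nucleotides outside the cell, Acpp (prostatic acid phosphatase, which can make adenosine from AMP) rose with the extract at all 3 times (log2 1.68, 3.74 and 4.12) and with LPS at 24 h and 72 h (2.38 and 3.68). At 72 h it averaged 208 ± 23.98 CPM with the extract and 152 ± 29.2 CPM with LPS, against 12.2 ± 1.997 CPM in control. At 8 h its LPS difference was 0.53 (adjusted p = 0.218), called in those groups alone (0.56, adjusted p = 0.00524). With IL-4 at 72 h it was called higher (2.16) on replicate 3 alone, and without that library the difference was 0.51 (adjusted p = 0.106). Enpp4, which splits dinucleoside polyphosphates, was the enzyme with the largest LPS rise at 8 h and 24 h, with 377 ± 40.7 CPM with LPS at 8 h against 7.57 ± 5.84 CPM in control (log2 5.64 ± 0.30, adjusted p = 5.74e-19). Without control replicate 1 that difference was 6.33. Its LPS differences at 24 h and 72 h were 5.06 and 3.39, the last 4.23 without control replicate 1. With the extract Enpp4 averaged 11.8 ± 1.51, 36.1 ± 8.57 and 33.7 ± 3.49 CPM at 8, 24 and 72 h. Control had 6.12 ± 1.05 CPM at 24 h and 7.79 ± 5.10 CPM at 72 h. Enpp1, which splits ATP to AMP, fell with LPS at 24 h (-2.06) and 72 h (-1.07). Its call at 8 h (-0.66, adjusted p = 0.0245) was lost in 5 of the fits that left out a library (control replicate 1 or 2, LPS replicate 1, 3 or 4) and in those groups alone (adjusted p = 0.0686). With the extract Enpp1 averaged 15.2 ± 6.996, 16.1 ± 1.03 and 22.97 ± 3.03 CPM at 8, 24 and 72 h. Control had 36.8 ± 6.32, 36.2 ± 2.31 and 36.1 ± 6.03 CPM.

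Ada, which deaminates adenosine to inosine, was the 1 gene of the 3 lists that fell with all 3 stimuli at all 3 times. The mean at 8 h was 12.4 ± 1.37 CPM with the extract, 16.3 ± 1.75 CPM with LPS and 35.7 ± 7.63 CPM with IL-4, against 55.6 ± 4.14 CPM in control. The log2 differences at 8, 24 and 72 h were -2.18, -2.27 and -2.03 with the extract, -1.78, -2.85 and -2.91 with LPS, and -0.61, -0.57 and -1.13 with IL-4. The IL-4 call at 8 h was lost without IL-4 replicate 3 (-0.50, adjusted p = 0.0645) and in those groups alone (-0.59, adjusted p = 0.0655), and that at 24 h without the libraries rich in ambiguous reads (-0.55, adjusted p = 0.0694). Adk, which phosphorylates adenosine, fell with LPS at all 3 times (-1.30, -1.33 and -0.82).

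Nucleoside carriers split by direction under LPS. Slc29a1, the equilibrative nucleoside transporter of the plasma membrane, fell at all 3 times (log2 -1.67, -1.62 and -0.87), and so did Slc29a3, a lysosomal member of the family (-0.75, -1.02 and -1.15). Slc28a2, a sodium-driven nucleoside carrier, rose (2.84, 2.53 and 1.76) and averaged 209 ± 17.8 CPM with LPS at 8 h against 29.1 ± 3.26 CPM in control. Slc29a1 and Slc29a3 also had lower means with the extract than in control. At 8, 24 and 72 h Slc29a3 averaged 84.3, 103 and 89.2 CPM with the extract (control 232, 242 and 128 CPM). Slc29a1 averaged 29.5, 34.4 and 44.04 CPM with it (control 46.7, 52.1 and 47.3 CPM). Slc28a2 averaged 24.9, 32.6 and 39.7 CPM with it (control 29.1, 27.3 and 21.9 CPM).

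Of the enzymes of turnover inside the cell, Nampt (NAD salvage), Ampd3 (AMP deaminase) and Pnp (purine nucleoside phosphorylase) rose with the extract and with LPS at all 3 times. Nampt averaged 1159 ± 47.4 CPM with the extract and 1916 ± 168 CPM with LPS at 8 h, against 356 ± 20.5 CPM in control (log2 1.70 and 2.43). Ampd3 averaged 209.7 ± 21.8 CPM with the extract, 86.3 ± 7.34 CPM with LPS and 18.8 ± 2.78 CPM with IL-4 at 8 h, against 36.3 ± 4.47 CPM in control (log2 2.52 and 1.24, and -0.94 with IL-4, adjusted p = 0.00641). Pnp averaged 941 ± 111 CPM with LPS at 8 h against 55.7 ± 22.7 CPM in control (log2 4.07), and Nt5c3, a nucleotidase of the cytosol, 799 ± 108 CPM against 49.7 ± 10.8 CPM (log2 4.01). Reads of Pnp may be shared with its near-identical copy Pnp2, so its level is uncertain to that extent. With IL-4, Ampd2, another AMP deaminase, rose at 8 h (0.84, adjusted p = 0.000904), and Slc28a2 fell at 24 h (-0.92, adjusted p = 0.000199).

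**Figure D4:**
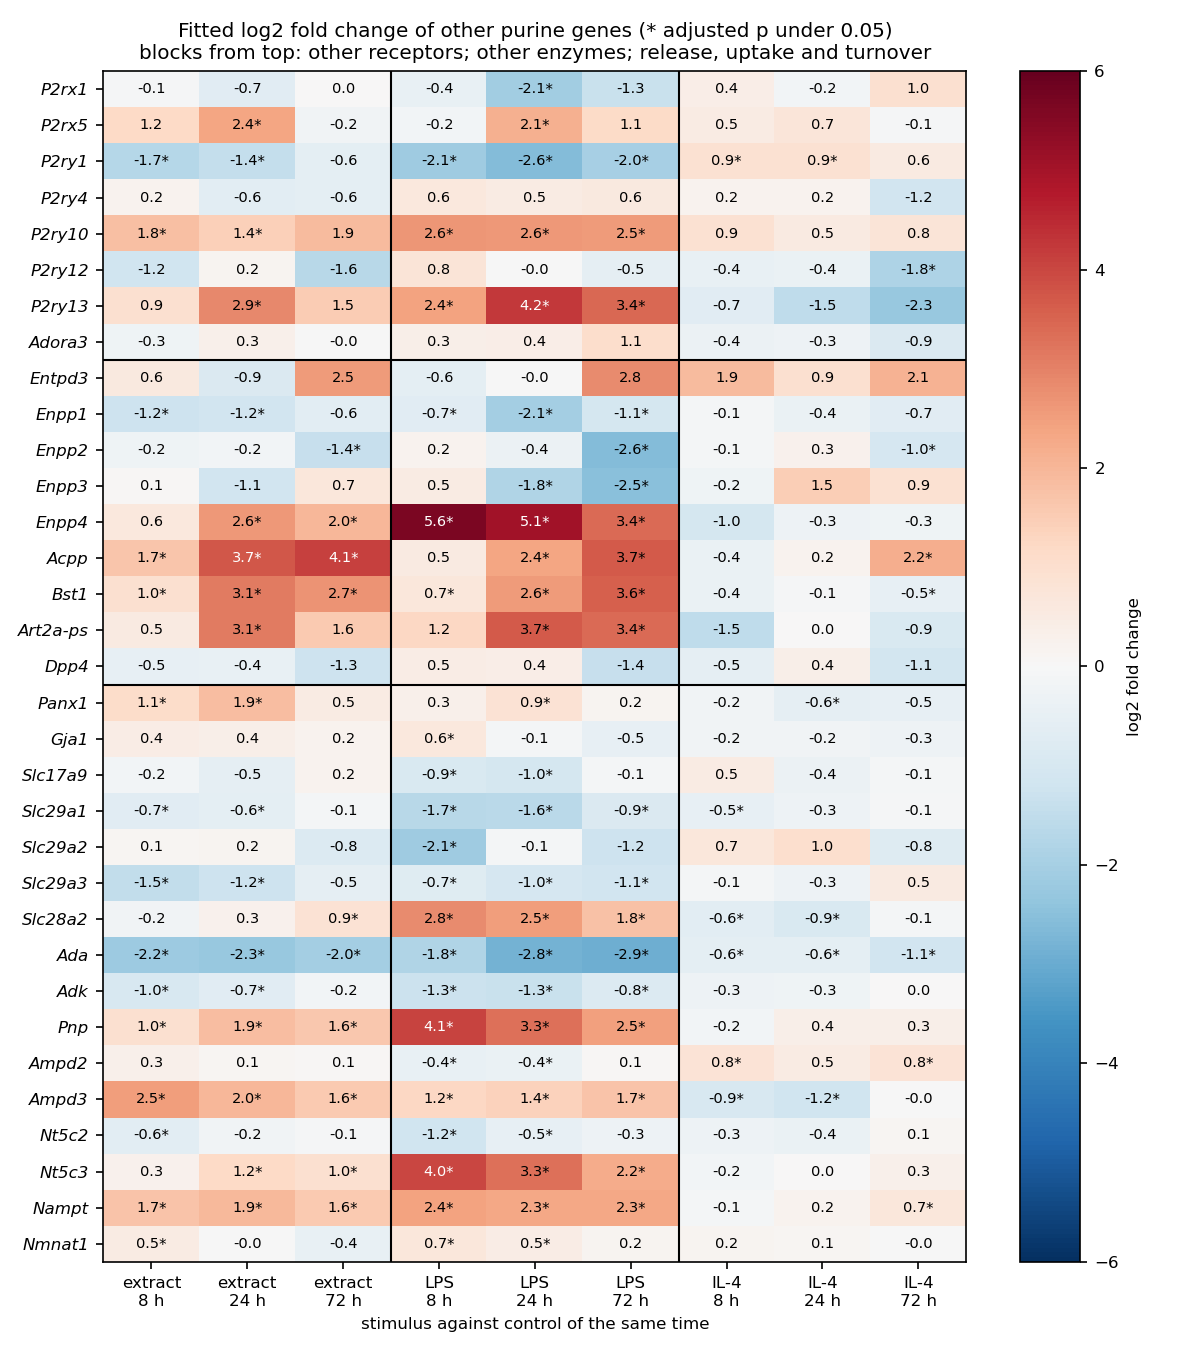
Fitted log2 fold change of the tested genes of the 3 lists (rows) for each stimulus against control of the same time (columns), with red for higher, blue for lower and an asterisk for an adjusted p under 0.05. Enpp4 (5.64 at 8 h) and Bst1 (3.60 at 72 h) are red under LPS, and Ada is blue in every column.

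Patterns over the 12 group means (log2 CPM) were compared with those of all other tested genes, as a description, since groups share libraries of 1 isolate and 1 set of controls. Within the 10 genes, Adora2a and Cd38 were most alike (r = 0.92), and Adora2a and Entpd1 ran most opposite (r = -0.77). Outside the 10 genes and the 3 lists, Adora2a was most like Tnfaip3, an inhibitor of NF-kB signalling, and RP23-148L8.3 (r = 0.99 for each). Cd38 was most like Sod2 and Clec4e (r = 0.99 for each), the mitochondrial superoxide dismutase and the C-type lectin Mincle. P2ry14 was most like BC051226 and A530032D15Rik (r = 0.97 for each), and Adora2b most like Rcl1 and Gimap9 (r = 0.92 for each). Entpd1 was most like Dcaf4 (r = 0.94) and Large (r = 0.93), and P2rx4 most like St6galnac4 (r = 0.96) and the lysosomal macrophage protein Cd68 (r = 0.94). P2ry2 was most like Srebf2 (r = 0.93), a regulator of sterol genes, and Pfn1 (r = 0.92). P2rx7 was most like Usp54 (r = 0.91) and Cul4a (r = 0.89), P2ry6 most like Ssh1 (r = 0.88) and Camk2g (r = 0.87), and Nt5e most like Ralgps2 (r = 0.93) and Hsd11b1 (r = 0.86).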

How the data were processed

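The authors deposited raw counts per Ensembl gene for the 44 libraries (polyadenylated RNA, 50-base single-end reads). The submitters' processing notes name HTSeq, TopHat2 2.1.1, TopHat, Bowtie2, cutadapt, edgeR and DESeq, and build mm10. The strand setting and the annotation release are not stated in the sources used here. The 5 summary entries were left out. Ambiguous reads came to 5.39% of gene plus ambiguous reads (3.16% to 17.3% per library).

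Groups were taken from the labels. In R 4.3.3 with edgeR 4.0.16 and limma 3.58.1, filterByExpr (minimum count 10) kept 14537 genes, and a quasi-likelihood model with TMM scaling and 1 term per group was fitted over every library (32 residual degrees of freedom, with a common BCV, the biological coefficient of variation, of 0.219). Within each comparison, p-values were adjusted by Benjamini-Hochberg over all tested genes and called under 0.05. Fold changes are fitted log2 values ± SE (prior count 0.125), and levels are CPM, mean ± SD over libraries. The procedure was tested on simulated data. Positions and exonic lengths came from GENCODE M21 (GRCm38). Limits from 0 reads allow 3 counts and cover counting error only.

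The 10 genes and the 3 lists were chosen with earlier results of these data known. The 10 are named in every comparison; a list gene is named where called in 1 direction at all 3 times of a stimulus, or with the smallest p of its list in a comparison. Other values of those genes, and libraries left out, were chosen after their values were seen. Genes with like patterns are the 2 with the highest Pearson's r over 12 group means of log2 CPM (prior count 2), among genes of at least 1 CPM on average.

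Alternatives were RLE size factors, DESeq2 1.42.0, no filter on low counts, fits of only the groups compared, a block for the replicate number, and leaving out single libraries. Added after seeing the data were fits without 4 libraries that stand apart, without 7 libraries over 10% ambiguous, and without 5 libraries under 2 M counts. Libraries with the same replicate number deviated together, with r over 0.1 in every pair, for the extract at 8 h (0.116 to 0.594), LPS at 8 h (0.118 to 0.508), LPS at 24 h (0.119 to 0.585) and control at 24 h against 8 h (0.295 to 0.602). The labels do not say what the number marks.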

Additional observations from a re-analysis of the deposited data

Results flagged for a closer look

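In groups of 4 libraries, 80 sets of values of the 10 genes were looked at, and 4 held a library far from the other 3. Chance gives about 1 in 20, which is the same number. P2ry6 was at 14.7 CPM in replicate 3 of control at 8 h, with the others at 22.9 to 23.4 CPM. P2ry14 was at 265.9 CPM in replicate 2 of LPS at 8 h, with the others at 314 to 318 CPM. Adora2b was at 20.2 CPM in replicate 3 of the extract at 8 h, with the others at 25.6 to 26.4 CPM. Entpd1 was at 71.9 CPM in replicate 1 of IL-4 at 24 h, the shallowest library, with the others at 125 to 134 CPM.

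The log2 difference from control at 72 h minus that at 8 h was called for 11 pairs of gene and stimulus by edgeR's quasi-likelihood test, all tested against the same 2 control groups. With the extract it was 0.84 for P2rx7 and 1.15 for Entpd1, and it was -1.87 for Adora2b and -1.37 for Cd38. With LPS it was 1.89 for Adora2b, 0.91 for P2ry6 and 0.87 for Entpd1 (0.66 and not called without the libraries rich in ambiguous reads), and it was -1.40 for P2ry14 and -0.88 for P2rx4. With IL-4 it was 2.43 for Adora2a and -1.79 for P2ry6. For Adora2b the sign differed between the extract and LPS, and for Entpd1 the fall was smaller at 72 h with both. Without the libraries rich in ambiguous reads the extract value of Cd38 was not called either (-1.35).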

How the results depend on the processing

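No result changed direction in any alternative where either value was called. Counts of called genes among the 10 stayed within 1.5 times of those reported, apart from the following. With IL-4 at 24 h, 1 was called with no filter on low counts and 1 without the libraries rich in ambiguous reads (2 as reported). With IL-4 at 72 h, 1 was called in the compared groups alone, 1 without the libraries rich in ambiguous reads, 4 without the libraries that stand apart and 4 without those under 2 M counts (2 as reported). For control at 24 h against 8 h, 1 was called in those groups alone (0 as reported). For control at 72 h against 8 h, 0 were called in those groups alone and 1 without the libraries rich in ambiguous reads (3 as reported). For the IL-4 difference at 72 h minus that at 8 h, 1 was called in those groups alone (2 as reported). The cause was not tested. Leaving out single libraries gave 1 to 2 calls for IL-4 at 24 h, 1 to 3 for IL-4 at 72 h, 3 to 6 for the extract against LPS at 8 h, 4 to 7 at 24 h, 0 to 4 for control at 72 h against 8 h, and 1 to 2 for the IL-4 difference over time. Over the 10 genes in all comparisons, RLE scaling added 3 calls and lost 1, DESeq2 added 9 and lost 1, no filter added 2 and lost 8, the compared groups alone added 6 and lost 9, and the fits that leave out 1 library added 13 and lost 55, with 1622 values on the same side of the threshold. Among the 10 genes the block changed no call in the 4 comparisons where the numbers pair the libraries; of the named list genes there it added Enpp4 with the extract at 8 h (0.72, adjusted p = 0.0251). In other comparisons it added P2rx4 with the extract at 24 h (-0.38, adjusted p = 0.0401) and lost Nt5e with LPS at 72 h (1.54, adjusted p = 0.061), and of the named list genes it added P2ry1 (-0.70) and Enpp1 (-0.79) with the extract at 72 h, Ampd2 with IL-4 at 24 h (0.52) and Enpp1 with IL-4 at 72 h (-0.82). Counts over all genes moved by over 1.5 times when groups were fitted alone: 2787 against 4576 as reported for LPS at 72 h, 615 against 1211 for IL-4 at 8 h, 814 against 1381 for IL-4 at 24 h, 4282 against 2446 for the extract against LPS at 24 h, 1051 against 1968 for control at 72 h against 8 h, and 1367 against 2338 for the IL-4 difference over time. The widest spread was for control at 24 h against 8 h, where 78 genes were called as reported, 191 by DESeq2, 122 in those groups alone, 368 with no filter and 23 without the libraries rich in ambiguous reads. RLE scaling moved the share of rises among calls to 48.1%, against 60% as reported, for the extract difference over time, and to 41.6%, against 59.2%, for the IL-4 difference over time. Low reads limit Nt5e in all groups and Adora2a in control at 72 h.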
